A study of Mus musculus with 24 samples.

Results

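The subject is the transcript response to refeeding in mouse livers that had lost FoxO1 acutely. The 6 libraries were chosen by their titles, 3 from refed and 3 from fasted livers of the acute knockout arm (named AFLKO_CRE in the labels), out of 24 libraries in 8 groups of 3. All mice were C57BL/6 with floxed Foxo1 (FoxO1lox/lox). The Cre groups had received AAV8.TBG.Cre, a virus given through the tail vein whose TBG promoter restricts Cre to hepatocytes, so other liver cell types keep the gene. Livers were taken on day 21 after the virus, either 4 h into a fast or after the same 4 h fast and 1 h of refeeding. The acute control groups carried the same floxed gene and AAV8.TBG.eGFP, fasted and refed in the same way. A constitutive model supplied the other 12 libraries: knockout livers (KO) from crosses of FoxO1lox/lox with Albumin-cre mice and floxed livers without Cre (WT), each fasted and refed. Ages are not given in the labels, nor whether each library came from a separate animal, so p-values speak only to how far these libraries scatter, and that scatter may be technical. The series is titled as a study of expression and chromatin through fasting and refeeding. The comparison asks what differs after 1 h of refeeding in a liver without hepatocyte FoxO1. Refed livers were also taken 1 h later in the protocol, and no group went without food for that hour. Food and elapsed time therefore cannot be told apart.

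In the fasted liver, FoxO1 is a transcription factor that resides in the nucleus and drives genes of glucose output such as G6pc, Pck1 and Igfbp1. Food raises insulin, which acts through phosphatidylinositol 3-kinase and Akt. Akt phosphorylates FoxO1 and sends it out of the nucleus, while the mTORC1 and SREBP-1c branches favour ribosome production and fatty acid synthesis. Insulin therefore has targets that need FoxO1 and targets that do not.

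Foxo1 itself was near the floor in every library of the Cre arm. It measured 0.396, 0.212 and 0.360 FPKM (a fragment count corrected for the length of the transcript and for the mapped total of the library) in fasted replicates 1 to 3 and 0.324, 0.571 and 0.350 FPKM in refed replicates 1 to 3. Cre livers lay 2.05 ± 0.10 (SE) below GFP livers on the log2(FPKM + 1) scale when fasted, and the refed difference was -2.34 ± 0.10. Adjusted p-values were 3.09e-06 and 7.19e-07, so each library matched its label. Refeeding moved Foxo1 by 0.10 within Cre livers (adjusted p = 0.600). The total number of fragments is unknown, but the steps between low values gave each library's relative depth. It was 1.16 and 1.31 in the first replicates of fasted and refed Cre livers and 0.593 to 0.669 in the other 4. Hepatocyte markers summed to between 56396 and 70435 FPKM in the 6 libraries.

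After 1 h of refeeding, 449 genes were higher and 120 lower of 10452 tested in Cre livers, at an adjusted p below 0.05. These calls were 5.44% of the genes tested, 4.3% higher and 1.15% lower. At an unadjusted p below 0.05 there were 2513. Of the calls, 39 rose and 19 fell by at least 1 on the log2 scale, and in 568 of 569 no fasted library overlapped a refed one. The exception was Cyp2c67. Among all genes 23% were higher and 7.39% lower in every refed than in every fasted library, 30.4% together. Of all genes 64.5% lay above 0. Counts in the gene lists below are to be read beside these shares. The split between rising and falling calls depended on scale. The median of all genes lay at 0.08, and after rescaling libraries by their median ratios, a shift of 0.09, 168 genes were called higher and 204 lower. That lowered the share of rising calls from 78.9% to 45.2%. All 168 of those rising calls were among the 449, and 119 of the 120 falling calls remained. The count also rested on single libraries: without fasted replicate 2 there were 45 rising and 12 falling calls, and without refed replicate 3 there were 356 and 72. In the 8 shallower acute libraries alone 6 genes passed, Lpin1, Adh6-ps1, Snora78 and D0H4S114 rising and Rhbg and Csrp3 falling. That fit held only replicates 2 and 3 of each Cre group, so fewer libraries as well as shallower ones entered it. The median of all genes was 0.09 there. In all, 51 calls, 39 rising and 12 falling, held without any 1 of the 12 acute libraries.

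Ppp1r3b, a regulator of glycogen storage, and Pfkfb3, a regulator of glycolysis, rose, and Pklr was the only other call in their lists. Ppp1r3b encodes the hepatic glycogen-targeting subunit that brings protein phosphatase 1 to glycogen synthase (mm10 8:35375741-35388137). Its transcript measured 8.31, 10.4 and 16.8 FPKM in fasted and 47.8, 45.7 and 43.9 FPKM in refed replicates 1 to 3. The refed libraries were within a narrow band and all far above the fasted ones, a log2 change of 1.92 ± 0.25 (SE, n = 3 against 3, adjusted p = 0.00567). It was the only 1 of 13 tested genes of glycogen synthesis and breakdown that passed, 7.7% beside 5.44% of all genes. Gys2, the liver glycogen synthase it acts on, measured 109 to 116 FPKM fasted and 75.3 to 124 FPKM refed (-0.14, adjusted p = 0.618), and Ppp1r3c, another targeting subunit, changed by -0.08 (0.858). Pfkfb3 makes fructose 2,6-bisphosphate, the activator of phosphofructokinase (mm10 2:11471431-11553929). Its level was 1.68, 1.16 and 1.71 FPKM fasted and 7.70, 6.60 and 7.40 FPKM refed, so all 3 refed libraries stood apart (1.72 ± 0.23, adjusted p = 0.00596). Pklr, liver pyruvate kinase, rose from 67.5, 67.8 and 71.6 to 102, 163 and 154 FPKM (0.98 ± 0.23, adjusted p = 0.0349). Ppp1r3b and Pfkfb3 passed without any 1 library. Pklr did not without fasted replicate 1, 2 or 3 or refed replicate 2 or 3 (adjusted p up to 0.109), nor after rescaling (0.0554).

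**Figure D1:**
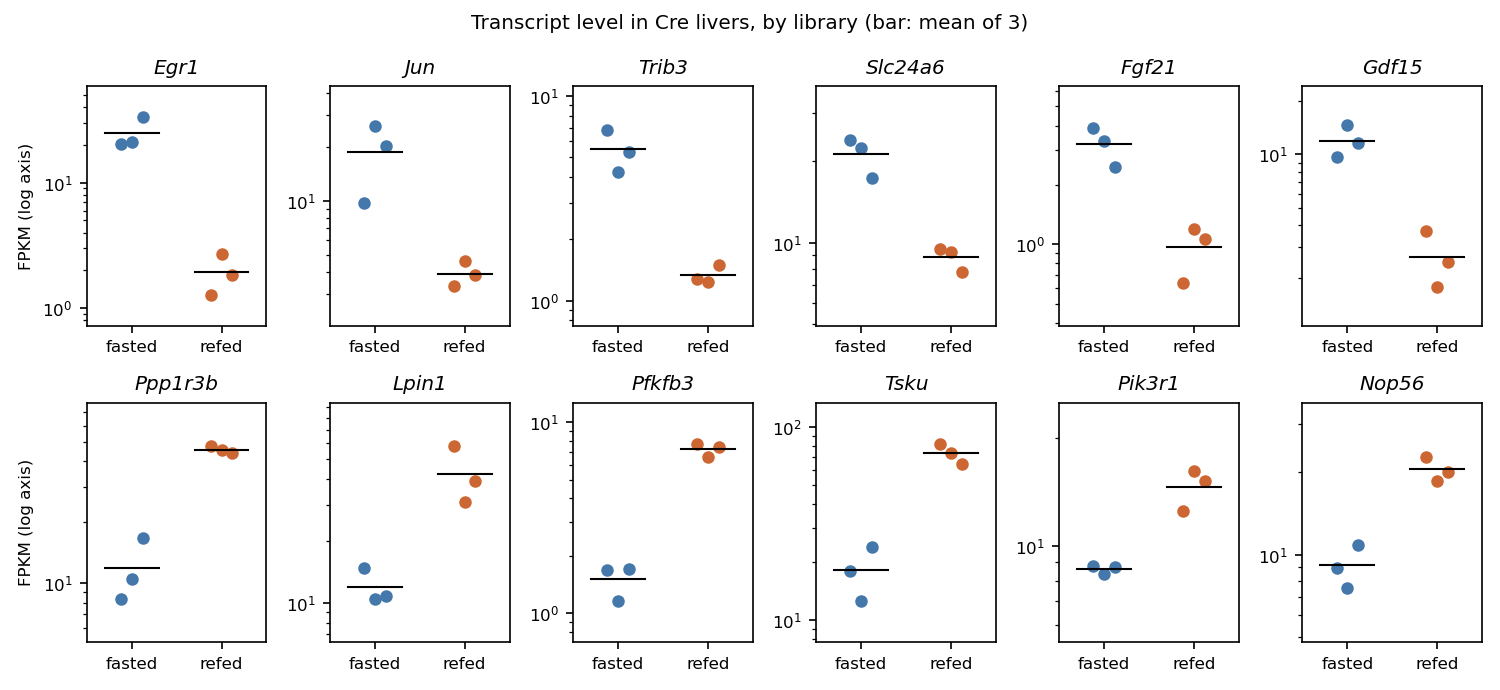
FPKM of 12 named genes in the 6 Cre libraries, on a log axis that differs between panels, with each point a library and each bar the mean of 3. Egr1 fell from between 20.4 and 33.4 FPKM to between 1.27 and 2.68 FPKM, Ppp1r3b rose from between 8.31 and 16.8 to between 43.9 and 47.8 FPKM, and no panel shows overlapping groups.

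Fatty acid synthesis genes rose in part. Of 15 tested members of that list, 4 rose and none fell: Elovl6, Thrsp, Fasn and Acacb. That is 26.7% of the list, beside 4.3% of all genes that rose. The list's median was 0.19 beside 0.08 for all genes. Fasn, the synthase that builds palmitate, measured 31.0, 30.8 and 36.3 FPKM fasted and 47.5, 75.2 and 61.0 FPKM refed (0.86 ± 0.18, adjusted p = 0.0260). Elovl6, which extends palmitate, went from 10.7, 11.2 and 12.8 to 19.1, 37.3 and 21.4 FPKM (1.04 ± 0.22, adjusted p = 0.0250), with refed replicate 2 the highest for both genes. Thrsp, a lipogenic regulator, rose by 0.95 ± 0.16 (adjusted p = 0.0130). Srebf1, the source of SREBP-1c, was 50.8, 34.2 and 47.0 FPKM fasted and 46.4, 89.4 and 77.8 FPKM refed. Refed replicate 1 lay among the fasted libraries, and the change of 0.65 ± 0.24 did not pass (adjusted p = 0.134). Scd1 changed by -0.11 (0.840). Lpin1, a phosphatidate phosphatase and transcriptional coregulator (mm10 12:16535669-16589770), was the only call among 21 genes of apolipoproteins, lipid export and lipins. That is 4.8% of the list, beside 5.44% of all genes. Lpin1 rose from 14.7, 10.5 and 10.8 to 58.0, 30.8 and 39.2 FPKM (1.72 ± 0.24, adjusted p = 0.00614), passed without any 1 library, and passed in the shallower libraries alone (0.0450). None of 22 cholesterol synthesis and uptake genes passed, and their median was -0.10. Each of the 4 lipogenic calls was lost without fasted replicate 2. Thrsp reached 0.0625 there. Elovl6 was also lost without fasted replicate 1 or 3 or refed replicate 2 (up to 0.0909), and Fasn without those or refed replicate 3 (up to 0.0986). Acacb was lost without any Cre library but fasted replicate 1 and without 4 GFP libraries (up to 0.153), and after rescaling (0.0831).

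Of 16 tested genes described as FoxO1 targets 1 passed, Pdk4, 6.2% beside 5.44% of all genes. Of the 16, 11 lay below 0, and the median was -0.14. Of 14 tested gluconeogenic genes none passed, and the median was -0.03. G6pc, glucose-6-phosphatase, the last step of glucose release, measured 49.0, 54.5 and 78.2 FPKM fasted and 134, 62.4 and 148 FPKM refed. Its highest libraries were refed replicates 1 and 3, and refed replicate 2 lay among the fasted ones (0.85 ± 0.34, adjusted p = 0.157). Pck1, which commits oxaloacetate to glucose synthesis, was 466, 467 and 899 FPKM fasted and 801, 340 and 589 FPKM refed, overlapping fully (-0.10 ± 0.30, adjusted p = 0.872), and without single libraries the value ran from -0.37 to 0.24. Ppargc1a, a coactivator of both genes, differed by -0.05 (0.883). Igfbp1, an insulin-repressed binding protein for insulin-like growth factors, measured 19.1, 56.7 and 82.2 FPKM fasted and 11.0, 2.78 and 11.1 FPKM refed. Every refed library lay under every fasted one, yet the spread was wide and the change of -2.49 ± 0.71 did not pass (adjusted p = 0.0634). In GFP livers it was -2.33, and the difference between arms was -0.16 (adjusted p = 0.985). The letters GTAAACA, a FoxO element, were present on either strand in 2 of 14 promoters of the FoxO1 target list, 14.3% against 3.6% of all 32851 promoters in the table. A promoter here is 250 bases before to 50 after a RefSeq start (GRCm38.p6). These 2 were of Sesn1 and Txnip, neither of them called. Pdk4, the 1 call of the list, did not hold the letters, nor did Igfbp1, G6pc, Pck1 or Ppargc1a. Only these exact letters were searched, so a FoxO site of other letters or outside the window would be missed.

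Early insulin signalling genes were divided between rising and falling calls. Of 19 tested, Pik3r1 and Akt1 rose and Trib3 fell, 15.8% called in either direction beside 5.44% of all genes. Pik3r1, the regulatory subunit of phosphatidylinositol 3-kinase, was 8.77, 8.34 and 8.74 FPKM fasted and 12.5, 16.2 and 15.2 FPKM refed (0.69 ± 0.09, adjusted p = 0.00596). Trib3, a pseudokinase known to bind Akt, dropped from 6.84, 4.25 and 5.32 to 1.27, 1.23 and 1.49 FPKM (mm10 2:152337425-152344060). The 3 refed values were nearly equal (-1.46 ± 0.20, adjusted p = 0.00596). Akt1 rose by 0.41 ± 0.10 (adjusted p = 0.0381). Irs2, the insulin receptor substrate that feeding represses, was 1.96, 1.81 and 1.64 FPKM fasted and 1.12, 0.854 and 1.66 FPKM refed, with refed replicate 3 among the fasted libraries (-0.36 ± 0.17, adjusted p = 0.233). In GFP livers Irs2 fell by 1.55 (adjusted p = 0.00125), but the difference between arms, 1.19, did not pass (0.293). Pik3r1 and Trib3 passed without any 1 library. Akt1 did not without any fasted replicate, refed replicate 1 or 2 or GFP fasted replicate 3 (up to 0.139), nor after rescaling (0.107).

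Bile acid and heme synthesis each had a rate-limiting enzyme among the leading rises. Cyp7a1, which starts the classical route from cholesterol to bile acids (mm10 4:6265612-6275631), measured 39.0, 35.3 and 35.8 FPKM fasted and 69.3, 96.5 and 103 FPKM refed (1.25 ± 0.25, adjusted p = 0.0218). It was the only call among 13 bile acid genes, 7.7% beside 5.44% of all genes. Cyp8b1, which sets the share of cholic acid, was 104, 115 and 75.9 FPKM fasted and 86.1, 56.4 and 71.6 FPKM refed (-0.46, adjusted p = 0.360). Alas1, the first enzyme of heme synthesis, rose from 204, 120 and 244 to 365, 430 and 437 FPKM (1.17 ± 0.21, adjusted p = 0.0164). Cyp7a1 missed 0.05 without fasted replicate 2 or 3 or refed replicate 2 or 3 (up to 0.0818), and Alas1 without refed replicate 2 (0.0541).

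The fat oxidation and ketogenesis list had values below 0 for all 24 tested members, with a median of -0.21, and 3 of them fell: Pdk4, Fgf21 and Vnn1. These calls were 12.5% of the list, beside 1.15% of all genes that fell. The median of the list was 0.09 in GFP livers, -0.30 in KO livers and -0.19 in WT livers. The difference of the list between arms was not tested. Fgf21, a fasting hormone under PPAR-alpha control (mm10 7:45613890-45615490), dropped from 3.87, 3.35 and 2.48 to 0.633, 1.20 and 1.07 FPKM (-1.10 ± 0.19, adjusted p = 0.0137). Pdk4, the kinase that shuts pyruvate dehydrogenase, was 1.13, 5.88 and 3.50 FPKM fasted and 0.461, 0.637 and 0.606 FPKM refed. The fasted libraries spanned a wide range, and fasted replicate 1 was closest to the refed ones (-1.37 ± 0.31, adjusted p = 0.0320). Vnn1, a pantetheinase and PPAR-alpha target, fell from 27.4, 36.0 and 25.7 to 14.7, 19.3 and 16.5 FPKM (-0.77 ± 0.14, adjusted p = 0.0180). Cpt1a, the gate to mitochondrial oxidation, changed by -0.11 (adjusted p = 0.453). Among 18 secreted metabolic regulators, Tsku and Angptl6 rose and Gdf15, Fgf21 and Fetub fell, 27.8% called beside 5.44% of all genes. Tsku, a secreted leucine-rich repeat protein (mm10 7:98350668-98361328), rose from 17.8, 12.6 and 23.8 to 81.2, 73.2 and 64.1 FPKM (1.99 ± 0.35, adjusted p = 0.0147). Fetub, fetuin-B, dropped from 359, 379 and 435 to 271, 250 and 267 FPKM (-0.57 ± 0.14, adjusted p = 0.0446). Without fasted replicate 2, Fgf21 reached 0.0625, and without that library or refed replicate 1, Tsku and Vnn1 each reached 0.0666. Pdk4 was lost without any 1 refed replicate (up to 0.0925), Fetub without any Cre library (up to 0.132) and Angptl6 without fasted replicate 2 or 3 or any refed one (up to 0.147). The last 2 were also lost without 4 GFP libraries each, and Angptl6 after rescaling (0.0794).

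Immediate early genes, the transcription factors that cells induce within minutes of a stimulus, were lower after refeeding. Of 16 tested, 7 fell and none rose: Egr1, Jun, Junb, Fos, Maff, Klf6 and Jund. All 16 had values below 0, their median was -0.79, and 10 were lower in every refed library. Among all genes 1.15% fell and 7.39% were lower in every refed than in every fasted library. Egr1, a zinc-finger factor, measured 20.4, 21.0 and 33.4 FPKM fasted and 1.27, 2.68 and 1.82 FPKM refed (-3.14 ± 0.45, adjusted p = 0.00737). Its corepressor Nab2 fell from 10.6, 11.4 and 11.6 to 2.85, 5.56 and 5.11 FPKM (-1.18 ± 0.21, adjusted p = 0.0154). Jun was 9.70, 26.2 and 20.2 FPKM fasted and 3.33, 4.59 and 3.83 FPKM refed (-1.91 ± 0.40, adjusted p = 0.0248). Junb fell from 26.6, 28.9 and 34.9 to 6.51, 9.53 and 7.90 FPKM (-1.80 ± 0.38, adjusted p = 0.0265). Fos measured 1.57, 1.97 and 3.99 FPKM fasted and 0.174, 0.418 and 0.0522 FPKM refed (-1.48 ± 0.29, adjusted p = 0.0204). Fasted replicate 1 had the lowest level of both Fos and Jun among the fasted libraries. Egr1 passed without any 1 library, Nab2 did not without fasted replicate 2 (0.0666), and Junb was lost without any Cre library (up to 0.0882). Jun was lost without fasted replicate 2 or 3 or any refed one (up to 0.0988), Klf6 without the same libraries (up to 0.104), and Fos without fasted replicate 2 or 3 or refed replicate 1 (up to 0.0666). Maff was lost without any Cre library, and without 4 of the GFP libraries, up to 0.150.

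The promoters of Fos and Junb are shown because both genes fell and both hold the letters TGACG, the core of the element bound by CREB, which fasting hormones activate through cAMP. Each window is the 250 bases before the RefSeq start in GRCm38.p6, with matches on either strand in capitals. Fos lies at chr12:85473640-85473889 on the + strand, with matches that begin 129 and 66 bases before the start. Junb lies at chr8:84978749-84978998 on the - strand, with a match that begins 106 bases before.
Fos: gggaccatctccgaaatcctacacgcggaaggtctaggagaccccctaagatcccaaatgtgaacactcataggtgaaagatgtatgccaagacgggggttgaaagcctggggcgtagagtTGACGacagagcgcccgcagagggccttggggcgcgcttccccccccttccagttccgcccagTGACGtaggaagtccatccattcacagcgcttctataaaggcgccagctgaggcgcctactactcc
Junb: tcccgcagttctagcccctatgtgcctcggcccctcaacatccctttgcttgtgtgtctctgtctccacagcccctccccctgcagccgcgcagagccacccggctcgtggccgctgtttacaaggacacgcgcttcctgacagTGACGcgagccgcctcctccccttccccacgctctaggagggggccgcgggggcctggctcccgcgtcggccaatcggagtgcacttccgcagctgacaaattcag
The letters were in 3 of the 6 fallen members with a promoter in the table and in 7 of 12 tested members, 58.3%, against 20.8% of all promoters.

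The amino acid stress response, whose genes are driven by ATF4, had 3 falling calls among 14 tested members and none rising, with a median of -0.18. They were Gdf15, Asns and Trib3, 21.4% of the list beside 1.15% of all genes that fell. Gdf15, a stress hormone that acts on the hindbrain (mm10 8:70629394-70631635), was 9.73, 14.6 and 11.6 FPKM fasted and 3.69, 1.80 and 2.47 FPKM refed (-1.85 ± 0.43, adjusted p = 0.0350). Asns, asparagine synthetase, was 16.7, 5.82 and 5.60 FPKM fasted and 2.04, 0.458 and 4.01 FPKM refed, so refed replicate 3 came near the fasted libraries (-1.72 ± 0.45, adjusted p = 0.0494). Atf4 itself changed by -0.09 (0.696) and Ddit3, another target, by 0.63 (0.125). Osgin1, an NRF2-responsive growth inhibitor, was the only call among 10 oxidative stress genes, dropping from 97.0, 162 and 109 to 28.9, 55.3 and 41.0 FPKM (-1.54 ± 0.32, adjusted p = 0.0250). Gdf15 was lost without any 1 Cre library (up to 0.124). Asns was lost without 5 of the 6 Cre libraries, the exception being refed replicate 3, and without any GFP library (up to 0.134), and it missed the threshold after rescaling (0.0514). Osgin1 was lost without fasted replicate 2 or 3 or refed replicate 1 (up to 0.101).

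Ribosome biogenesis was the list with the most calls. Of its 32 tested members, the nucleolar proteins and polymerase I subunits that make and assemble ribosomes, 20 rose and none fell. That is 62.5% of the list, where 4.3% of all genes rose. All 32 had values above 0 (64.5% of all genes), 28 were higher in every refed library (23%), and the median was 0.49. Nolc1, a nucleolar chaperone of small nucleolar ribonucleoproteins (mm10 19:46075863-46085531), rose from 5.20, 4.64 and 5.97 to 15.1, 11.4 and 11.2 FPKM (1.11 ± 0.13, adjusted p = 0.00387). Nop56, a core protein of the box C/D particles that methylate ribosomal RNA (mm10 2:130274412-130279313), rose from 8.97, 7.58 and 10.9 to 22.7, 18.7 and 20.1 FPKM (1.09 ± 0.13, adjusted p = 0.00377). Ppan, a factor of the large subunit, was 6.48, 6.27 and 6.95 FPKM fasted and 14.3, 14.5 and 12.4 FPKM refed (0.96 ± 0.09, adjusted p = 0.00125). Nop2, a methyltransferase of the large subunit RNA, rose from 5.33, 4.78 and 6.34 to 12.5, 10.7 and 9.25 FPKM (0.87 ± 0.12, adjusted p = 0.00596). In each of these genes the 3 refed libraries lay well above the fasted ones. The polymerase I subunits Polr1a and Polr1b were among the calls. The abundant nucleolar proteins Ncl and Npm1 changed by 0.06 and 0.10 (0.695 and 0.560). After rescaling, 12 members were called and 29 lay above 0, with a median of 0.40. None was called in the 8 shallower libraries, where 31 lay above 0 with a median of 0.43. Without any 1 library, 7 of the 20 calls held: Nip7, Nolc1, Nop2, Nop56, Ppan, Rrp12 and Tsr1. By contrast Nop58 (0.91) was lost without fasted replicate 1 or 2 or refed replicate 1 (up to 0.0818).

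The promoter of Nop2, a rising nucleolar gene, is shown for the E-box CACGTG, the letters that Myc and its relatives bind. It lies at chr6:125131633-125131882 on the + strand (GRCm38.p6), and the capitals mark the E-box, which begins 60 bases before the start.
Nop2: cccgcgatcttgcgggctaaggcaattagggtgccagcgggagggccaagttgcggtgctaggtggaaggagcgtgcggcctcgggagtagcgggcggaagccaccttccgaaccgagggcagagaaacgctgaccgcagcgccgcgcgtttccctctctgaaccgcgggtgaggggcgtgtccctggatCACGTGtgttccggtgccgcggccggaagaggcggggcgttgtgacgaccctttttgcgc
Of the 18 risen members with a promoter in the table, 6 held these letters, 33.3% against 7.2% of all promoters, and so did 7 of 27 tested members. Among the 6, only Nop2 held them before the start. In Wdr43, Tsr1, Grwd1, Utp20 and Mybbp1a the E-box begins after the start, at bases 18 to 41. Myc itself changed by -0.31 (adjusted p = 0.615).

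Of 7 genes of polyamine synthesis, Srm and Odc1 rose, 28.6% beside 4.3% of all genes. Srm, spermidine synthase, went from 13.7, 11.0 and 16.0 to 31.8, 25.5 and 24 FPKM (0.95 ± 0.13, adjusted p = 0.00596), and Odc1, the first enzyme of the pathway, rose by 0.49 ± 0.13 (adjusted p = 0.0468). Among 19 cytosolic aminoacyl-tRNA synthetases Iars rose (0.38 ± 0.09, adjusted p = 0.0380), 5.3% beside 4.3% of all genes, and the median was 0.13. None of 34 cytosolic ribosomal proteins passed. Their median was 0.08, the same as for all genes, and it became -0.03 after rescaling. Srm passed without any 1 library, while Odc1 did not without any 1 Cre library or 5 of the GFP libraries (up to 0.160). Iars did not without fasted replicate 1, 2 or 3, refed replicate 1 or 2 or 3 of the GFP libraries (up to 0.115). Neither passed after rescaling (0.106 and 0.108).

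Heat shock chaperones and their cochaperones rose in part. Of 19 tested, 6 rose and none fell, 31.6% called beside 4.3% of all genes that rose. All 19 were above 0 (64.5% of all genes), 17 were higher in every refed library (23%), and the median was 0.44. Hsph1, a nucleotide exchange factor for Hsp70, measured 6.83, 7.88 and 6.45 FPKM fasted and 21.5, 14.4 and 10.7 FPKM refed (0.99 ± 0.20, adjusted p = 0.0226). Bag3, another Hsp70 partner, rose from 5.02, 5.92 and 6.88 to 16.4, 11.6 and 10.1 FPKM (0.96 ± 0.17, adjusted p = 0.0145). Hsp90aa1, the inducible Hsp90, rose from 27.0, 30.9 and 26.0 to 64.4, 58.2 and 40.6 FPKM (0.91 ± 0.21, adjusted p = 0.0327). In all 3 genes refed replicate 1 was the highest and refed replicate 3 the lowest of the refed libraries. The Hsp90 cochaperones Stip1, Fkbp4 and Ahsa1 rose by 0.51, 0.46 and 0.39 (0.0333, 0.0328 and 0.0428). After rescaling 2 members were called, Hsph1 and Bag3, and 18 of 19 were above 0. Each of the 6 was lost without fasted replicate 2. Bag3 reached 0.0625 there, Hsph1 up to 0.0698 without a fasted replicate or refed replicate 1 or 2, and the other 4 up to 0.127, each of them without fasted replicate 3 or refed replicate 1 or 2. Ahsa1 was also lost without refed replicate 3 and without 3 of the GFP libraries.

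The promoter of Fkbp4, a called member, is shown for the heat shock element core GAANNTTC, the paired units that heat shock factor binds. It lies at chr6:128438657-128438906 on the - strand (GRCm38.p6), and the capitals mark the match, which begins 151 bases before the start.
Fkbp4: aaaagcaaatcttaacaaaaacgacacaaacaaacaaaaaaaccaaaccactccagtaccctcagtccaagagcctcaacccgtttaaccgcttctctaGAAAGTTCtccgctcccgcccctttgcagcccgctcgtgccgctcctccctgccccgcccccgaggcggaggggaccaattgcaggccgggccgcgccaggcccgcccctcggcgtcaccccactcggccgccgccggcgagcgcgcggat
The core was in 3 of 5 risen members with a promoter in the table and in 10 of 16 tested members, 62.5% against 7.9% of all promoters. Among the 3, only Fkbp4 held it before the start. In Hsph1 and Bag3 the core begins after the start, at bases 21 and 43. A longer form of the element, with 3 units, was in 1 of 5 risen members, Hsph1, and not in Fkbp4. That form was in 4 of 16 tested members, 25% against 0.6% of all promoters.

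Chaperones of the endoplasmic reticulum, which fold secreted proteins, lay above 0 in all 22 tested members, beside 64.5% of all genes. Their median was 0.49, but only Hyou1 and Sel1l passed, 9.1% beside 4.3% of all genes that rose. For 17 of the 22, every refed library was above every fasted one, beside 23% of all genes. Hyou1, an exchange factor for the lumenal Hsp70, was 15.4, 21.1 and 20.4 FPKM fasted and 63.2, 38.7 and 30.3 FPKM refed (1.12 ± 0.27, adjusted p = 0.0411). Hspa5, that Hsp70 itself (BiP), was 165, 229 and 221 FPKM fasted and 516, 309 and 256 FPKM refed (0.76 ± 0.29, adjusted p = 0.136). Creld2, a stress-induced disulfide isomerase, was 14.7, 20.2 and 17.2 FPKM fasted and 88.5, 51.5 and 22.6 FPKM refed (1.40 ± 0.48, adjusted p = 0.108). Dnajc3, an Hsp70 partner in the lumen, was 36.8, 39.4 and 32.8 FPKM fasted and 51.7, 61.5 and 46.5 FPKM refed (0.53 ± 0.14, adjusted p = 0.0522). For Hyou1, Hspa5 and Creld2 refed replicate 1 was the highest library, and refed replicate 3 lay closest to the fasted ones. Neither call held after rescaling (Hyou1 0.0669, Sel1l 0.120). Both were lost without any 1 fasted replicate or refed replicate 1 or 2 (up to 0.112 and 0.134), and also without the first replicate of either GFP group.

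These promoters are shown because they share the endoplasmic reticulum stress element CCAAT, 9 bases of any kind and CCACG, which ATF6 and NF-Y bind, in genes whose refed libraries all lay above the fasted ones. The capitals mark the element, which begins 65, 126 and 105 bases before the start in Hspa5, Creld2 and Dnajc3. They lie at chr2:34771840-34772089, chr15:88819396-88819645 and chr14:118937682-118937931, all on the + strand of GRCm38.p6, and in Creld2 the element is on the opposite strand. None of the 3 genes passed the test, and Sel1l, the called member with a promoter in the table, does not hold these letters.
Hspa5: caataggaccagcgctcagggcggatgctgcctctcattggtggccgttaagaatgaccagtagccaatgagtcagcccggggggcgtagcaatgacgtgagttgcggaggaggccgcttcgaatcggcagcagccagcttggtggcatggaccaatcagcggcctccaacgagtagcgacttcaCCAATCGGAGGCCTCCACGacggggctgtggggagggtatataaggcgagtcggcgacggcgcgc
Creld2: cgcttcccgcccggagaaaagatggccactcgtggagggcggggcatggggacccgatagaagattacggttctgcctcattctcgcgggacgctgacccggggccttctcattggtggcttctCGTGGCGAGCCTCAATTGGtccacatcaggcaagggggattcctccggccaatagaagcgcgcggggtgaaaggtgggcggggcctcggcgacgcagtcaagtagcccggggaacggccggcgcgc
Dnajc3: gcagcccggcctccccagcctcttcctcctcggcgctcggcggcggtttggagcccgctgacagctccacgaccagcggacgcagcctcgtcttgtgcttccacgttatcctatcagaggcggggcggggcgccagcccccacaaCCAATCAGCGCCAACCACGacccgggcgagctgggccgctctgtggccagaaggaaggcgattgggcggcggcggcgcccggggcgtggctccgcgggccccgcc
The element was in 9 of 19 tested members with a promoter, 47.4% against 0.1% of all promoters. A match of letters is a description of the sequence and not a bound site.

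**Figure D2:**
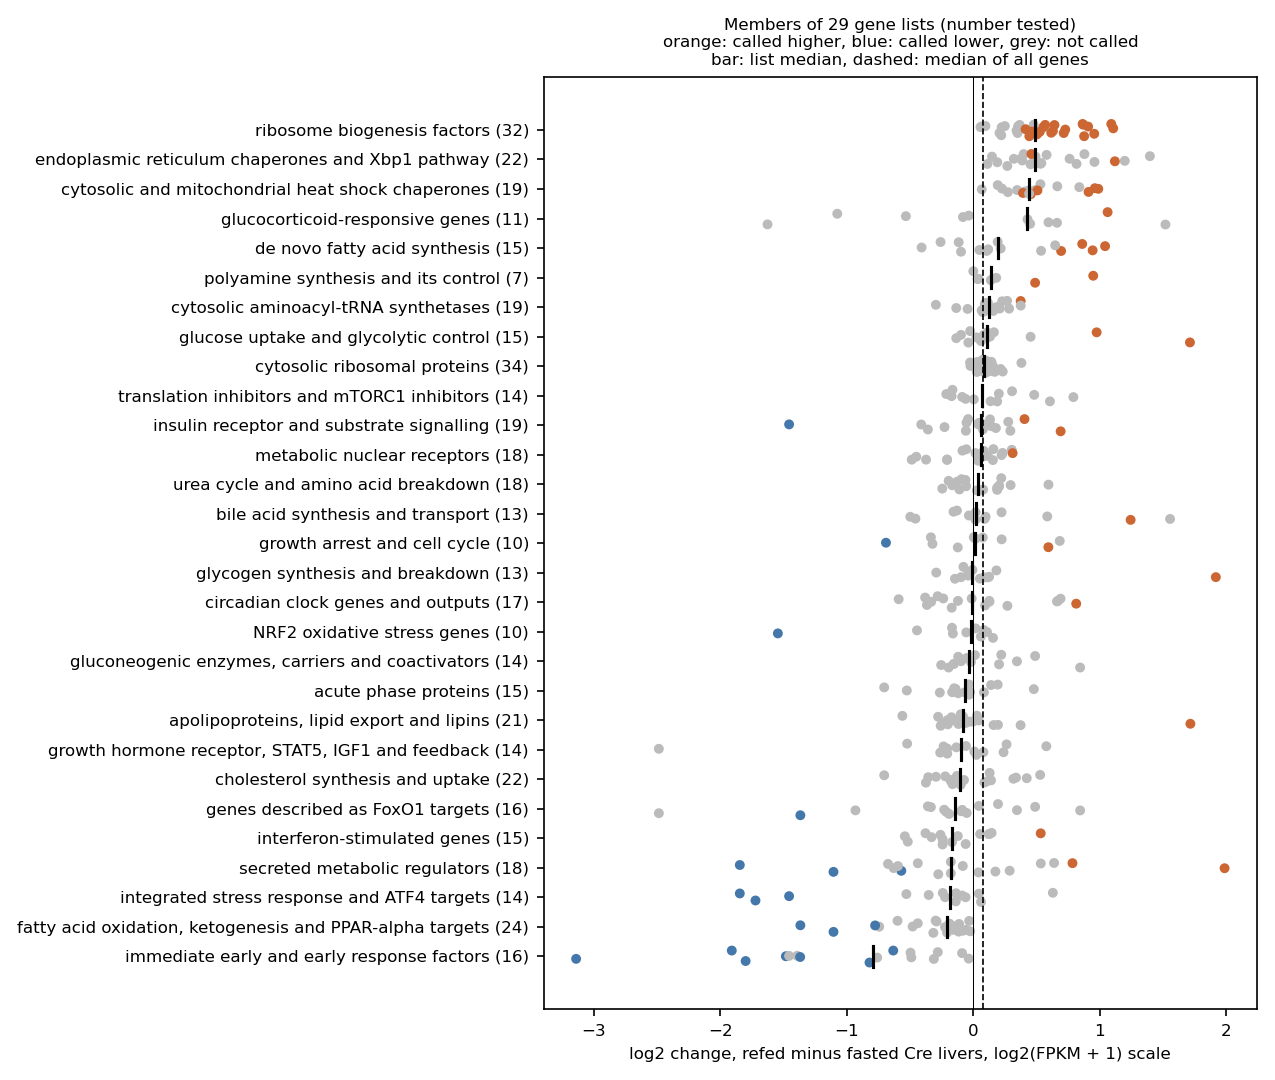
Log2 change, refed minus fasted Cre livers, of each tested member of 29 gene lists, 1 point per gene, with the list median as a bar and the median of all genes (0.08) as a dashed line. Ribosome biogenesis, endoplasmic reticulum and heat shock members lie wholly to the right of 0, and immediate early and fat oxidation members wholly to the left.

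Other leading genes came from no common pathway. Serpina4-ps1, a serpin pseudogene, had the largest rise, from 36.8, 25.0 and 5.60 to 318, 184 and 234 FPKM (3.69 ± 0.83, adjusted p = 0.0310). Reads of such a pseudogene may be shared with related serpins, so its level is uncertain. Serpina9 rose by 1.34 ± 0.29 (adjusted p = 0.0263). Arhgef26, a RhoG exchange factor, was 5.23, 4.15 and 5.43 FPKM fasted and 11.9, 12.6 and 13.5 FPKM refed (1.21 ± 0.14, adjusted p = 0.00377). Rcan1, an inhibitor of calcineurin, rose from 5.83, 9.75 and 13.7 to 25.7, 22.4 and 19.9 FPKM (1.20 ± 0.21, adjusted p = 0.0149). Per2, a clock repressor, was the only call among 17 clock genes (0.82 ± 0.16, adjusted p = 0.0201), and Zbtb16 the only call among 11 glucocorticoid-responsive genes (1.06 ± 0.17, adjusted p = 0.0123). These were 5.9% and 9.1% of their lists, beside 5.44% of all genes. On the falling side, Slc24a6, a mitochondrial sodium/calcium exchanger (mm10 5:120511192-120534024), dropped from 23.8, 22.3 and 17.3 to 9.47, 9.23 and 7.81 FPKM (-1.16 ± 0.12, adjusted p = 0.00221). Ocln, the tight junction protein occludin, dropped from 6.05, 9.33 and 9.92 to 1.65, 3.86 and 2.64 FPKM (-1.36 ± 0.24, adjusted p = 0.0145). Tcp11l2 fell by 1.12 ± 0.26 (adjusted p = 0.0344). Arhgef26 and Slc24a6 passed without any 1 library. Serpina4-ps1 was lost without any Cre library but fasted replicate 1 (up to 0.0958), Serpina9 without fasted replicate 2 or 3 or refed replicate 1 or 3 (up to 0.0834), Tcp11l2 without any 1 Cre library (up to 0.113), Ocln and Zbtb16 without fasted replicate 2 (0.0666 and 0.0625), and Rcan1 without that or refed replicate 1 (up to 0.0625). Per2 was lost without the second replicate of either group (up to 0.0818).

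Lists of urea cycle and amino acid breakdown (18 tested), acute phase proteins (15), growth hormone signalling (14) and translation and mTORC1 inhibitors (14) had no call in either direction. Single calls were Esrra among 18 nuclear receptors (0.31), Stat2 among 15 interferon-stimulated genes (0.53), Ccnd2 (0.60) and Ccne1 (-0.69) among 10 cell cycle genes. The calls were 5.6%, 6.7% and 20% of these lists, beside 5.44% of all genes. None of the 4 passed without fasted replicate 2 or 3 or refed replicate 1 (up to 0.151), and Esrra and Ccnd2 did not after rescaling (0.147 and 0.0641). Of 53 small nucleolar RNAs and microRNAs tested, none passed.

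Of markers of other liver cell types, 3 of 10 endothelial, 2 of 10 stellate and none of 11 Kupffer cell markers rose in refed Cre livers. Of all genes 4.3% rose. In these bulk samples a change in the number of cells of a type and a change in RNA per cell cannot be told apart. The 10 endothelial markers summed to 53.7, 36.7 and 26.7 FPKM fasted and 89.8, 98.2 and 66.0 FPKM refed, with no overlap and a ratio of means of 2.17. Of them, 3 rose: Gpr182, a sinusoidal receptor (1.29 ± 0.26, adjusted p = 0.0237), Oit3 (1.07, 0.0380) and Pecam1, the junction molecule CD31 (0.78, 0.0441). All 10 were above 0 (64.5% of all genes) and the median was 0.81. The 10 stellate markers summed to 103.5, 77.9 and 67.2 FPKM fasted and 159, 172 and 139 FPKM refed, a ratio of 1.89, and Ecm1 (1.03, 0.0468) and Dcn, decorin (0.94, 0.0455), rose. The 11 Kupffer cell markers summed to 87.8, 62.6 and 56.6 FPKM fasted and 285, 151 and 46.7 FPKM refed. Refed replicate 3 was under every fasted library, and none of the 11 passed (median 0.78). In GFP livers the refed to fasted ratios were 1.26 for endothelial, 1.40 for stellate and 1.83 for Kupffer markers, and 0.928 in Cre livers for hepatocyte markers. The erythroid sum went the other way, from 326, 210 and 139 to 147, 60.7 and 38.4 FPKM. Of 8 acinar markers 5 were listed at 0 in all 6 libraries, and no lymphocyte or acinar marker passed the filter on low values. The leading rises Gpr182, Sod3 (1.15), an extracellular superoxide dismutase, and Prok1 (1.13), and the ribosome and chaperone lists, moved in the same direction as these markers, and the part of such cells in those results was not tested. All 5 marker calls were lost without fasted replicate 2 or 3 or refed replicate 1 or 2 (up to 0.142). Of the 5, Gpr182 stayed called after rescaling (0.0339). Sod3 was lost without the same 4 (up to 0.0889), and Prok1 without any 1 Cre library, without 5 GFP libraries (up to 0.134) and after rescaling (0.0680).

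**Figure D3:**
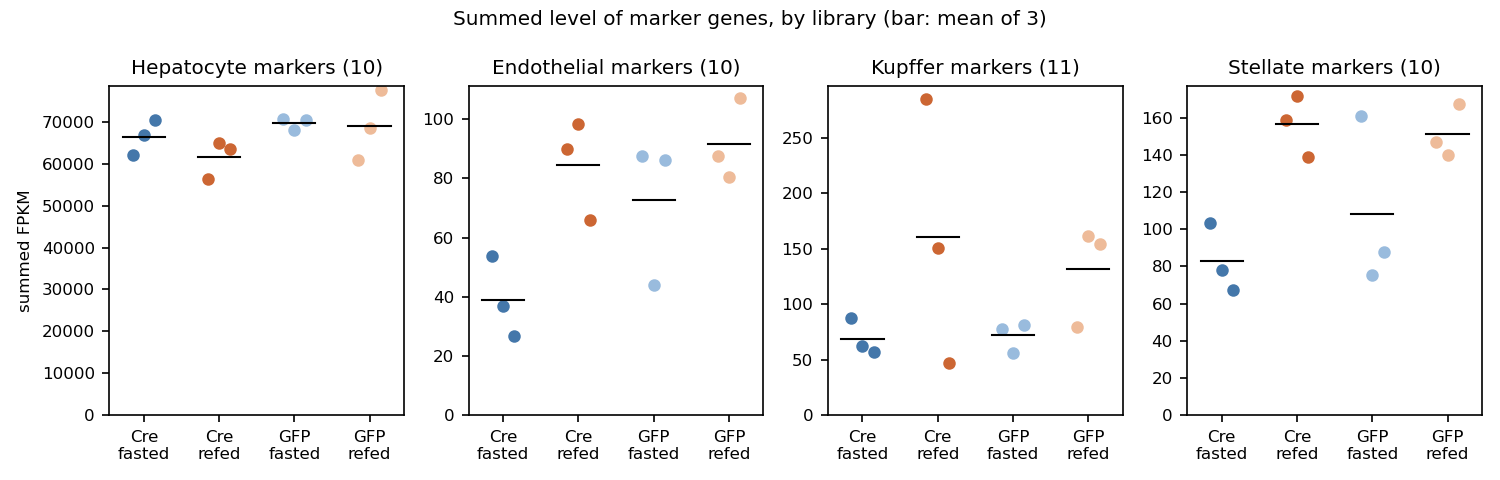
Summed FPKM of hepatocyte, endothelial, Kupffer cell and stellate cell markers in the 12 acute libraries, each point a library and each bar the mean of 3. Endothelial sums are 26.7 to 53.7 FPKM in fasted and 66.0 to 98.2 FPKM in refed Cre livers, while hepatocyte sums overlap.

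The same contrast was read in GFP livers, which share no library with the Cre groups. The tests in the GFP and Cre arms used the same shared spread, however. A gene with a small spread could therefore pass in both arms, and counts of such genes are not independent support. The signs of the changes do not rest on that spread. In GFP livers 686 genes passed, 6.56% of 10452, with 503 rising (4.81%) and 183 falling (1.75%). Of the 449 genes that rose in Cre livers, 433 (96.4%, beside 64.7% of all genes) also lay above 0 in GFP livers and 210 passed there in that direction. Of the 120 that fell, 111 (92.5%, beside 35.3%) lay below 0 and 52 passed. The median change of the rising calls was 0.53 in Cre and 0.38 in GFP livers, and that of the falling calls -0.62 and -0.37. The Cre medians come from the libraries on which the genes were chosen. Ppp1r3b changed by 1.47, Lpin1 by 1.29, Pfkfb3 by 1.54, Trib3 by -1.82, Nolc1 by 1.11 and Slc24a6 by -1.30 in GFP livers, each with an adjusted p of at most 0.0117. For none of these 6 did the difference between arms pass (adjusted p at least 0.867). Other genes called in Cre livers did not pass in GFP livers. There Fos changed by -0.37, Jun by -0.27, Gdf15 by -0.18, Pdk4 by -0.17 and Asns by -0.03 (adjusted p 0.472 to 0.977). Their differences between arms did not pass either (adjusted p 0.691 to 0.715).

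**Figure D4:**
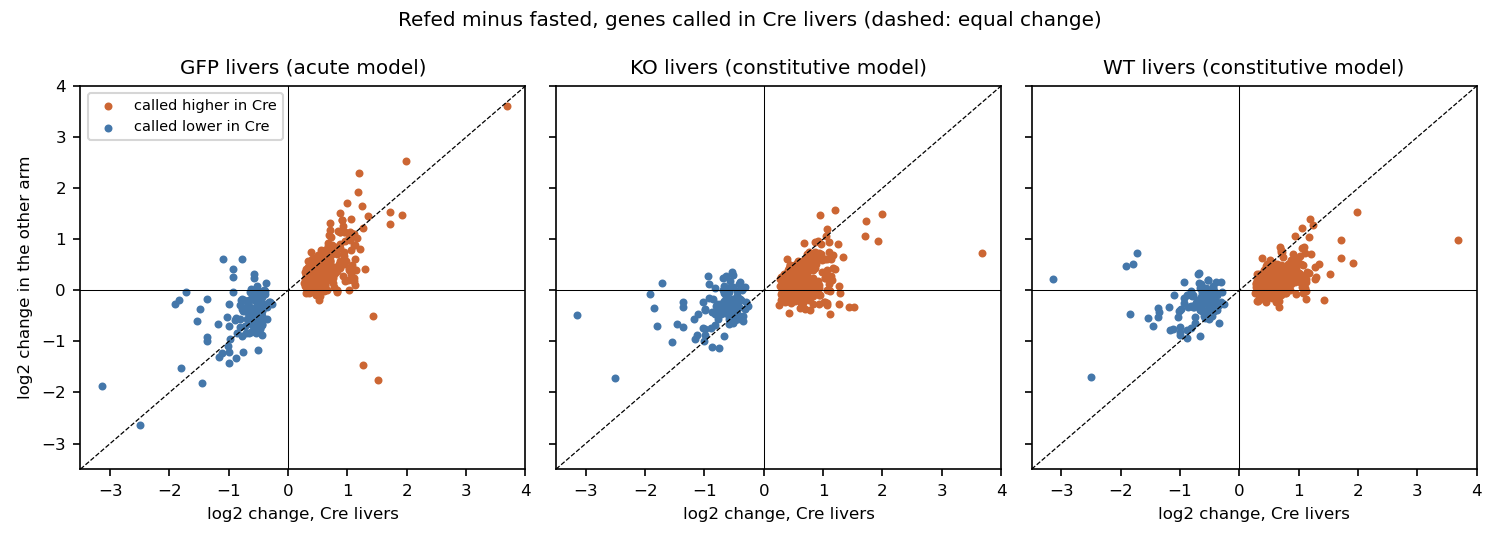
Log2 change, refed minus fasted, of the 569 genes called in Cre livers (x axis) against the same change in GFP, KO and WT livers (y axis), 1 point per gene, with the dashed line marking equal change. Most points keep their sign in all 3 panels, and 3 called genes pass in the opposite direction in GFP livers.

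A test of the difference between the Cre and GFP responses found 3 genes, 0.0287% of those tested, while 690 had an unadjusted p below 0.05. Prelid2, which encodes a PRELI-domain protein of a mitochondrial lipid-transfer family, rose in Cre livers from 0.821, 0.400 and 1.24 to 4.35, 5.53 and 2.86 FPKM (1.52 ± 0.24, adjusted p = 0.0114). In GFP livers it fell from 4.97, 6.83 and 4.39 to 1.46, 0.574 and 0.693 FPKM, so the levels of the arms were exchanged, and the difference in response was 3.28 (adjusted p = 0.00527). Gm4956, a predicted gene (mm10 1:21285246-21298312), rose in Cre livers from 3.83, 2.08 and 3.02 to 9.61, 8.27 and 7.54 FPKM (1.27 ± 0.17, adjusted p = 0.00570). In GFP livers it fell from 5.70, 7.39 and 7.24 to 1.80, 1.47 and 2.19 FPKM, a difference in response of 2.73 (adjusted p = 0.00128). Both differences held without any 1 acute library, at adjusted p up to 0.0267 and 0.00905. In the 8 shallower libraries Prelid2 missed the threshold (0.157) and Gm4956 passed (0.0271). The Cre response of Prelid2 alone was lost without fasted replicate 2 (0.0561). Snord17, a small nucleolar RNA (mm10 2:144265982-144266202), was listed at 0 in all 6 Cre libraries and in refed GFP livers and measured 6.17, 2.78 and 2.61 FPKM in fasted GFP livers. Its difference of 2.21 (adjusted p = 0.0349) was lost without each Cre library (0.0537 to 0.140), and a listed 0 can be a failed estimate. Snord17 passed the filter on low values only through the fasted GFP libraries, which also make the difference. Its test therefore gives no separate support for a differing response, and no Cre response was measured.

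Genes with opposite signs in the 2 arms were otherwise not separated by this test. Vnn1 fell in Cre livers and rose in GFP livers (0.62, adjusted p = 0.0281), from between 20.3 and 26.6 to between 33.8 and 36.0 FPKM, a difference of -1.39 (adjusted p = 0.0584). Fgf21 measured 2.48 to 3.87 FPKM in fasted Cre livers and 0.128 to 0.453 FPKM in fasted GFP livers, while refed levels overlapped, a difference in response of -1.71 (adjusted p = 0.0679). Adh6-ps1, an alcohol dehydrogenase pseudogene (mm10 3:138374121-138388291), rose in Cre livers from 4.19, 2.16 and 2.38 to 11.4, 7.95 and 8.73 FPKM (1.43 ± 0.21, adjusted p = 0.00737) and changed by -0.50 in GFP livers, a difference of 1.93 (0.0679). G6pc differed by 1.52 (0.669).

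**Figure D5:**
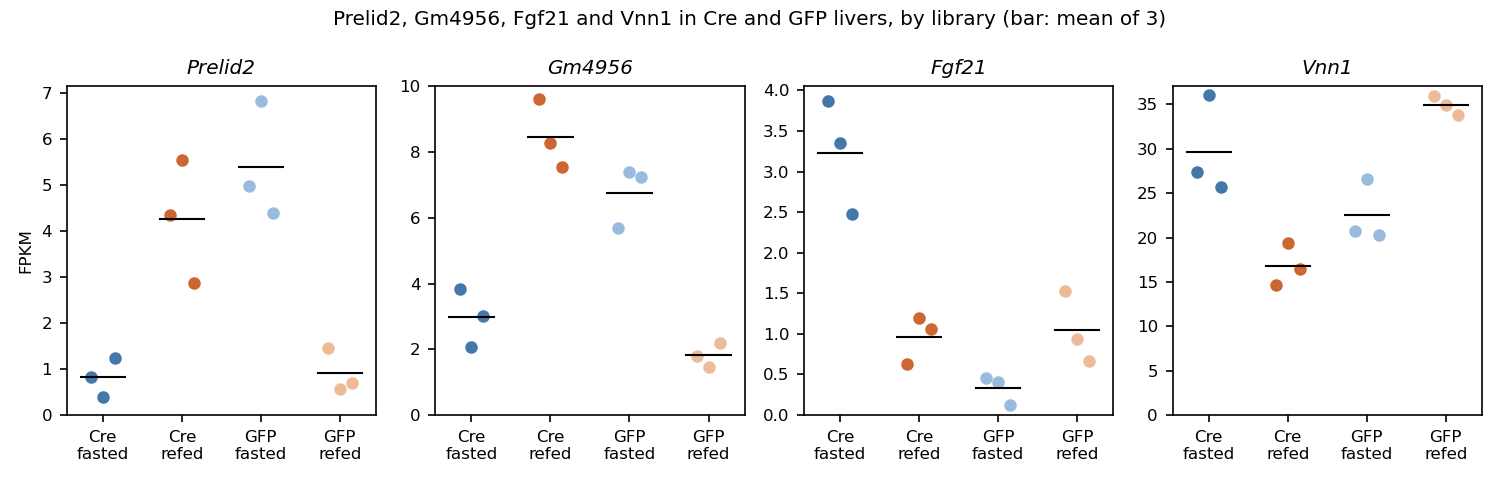
FPKM of Prelid2, Gm4956, Fgf21 and Vnn1 in the 12 acute libraries, each point a library and each bar the mean of 3. Prelid2 and Gm4956 are low in fasted Cre and refed GFP livers and high in the other 2 groups, and Fgf21 is highest in fasted Cre livers.

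In KO livers 589 of 10375 genes passed, 5.68%, with 207 rising (2%) and 382 falling (3.68%) on the values as deposited, and in WT livers 33 passed (0.318%). Of the genes that rose in Cre livers and were tested there, 328 of 436 (75.2%, beside 46.2% of all genes) lay above 0 in KO livers and 45 passed. Of those that fell, 99 of 118 (83.9%, beside 53.8%) lay below 0 and 28 passed. In WT livers the shares were 84.6% (beside 52.5%) and 82.2% (beside 47.5%). Ribosome biogenesis had a median of 0.35 in KO, 0.33 in WT and 0.52 in GFP livers. Immediate early genes had medians of -0.05, 0.11 and -0.32, and endothelial markers -0.20, 0.09 and 0.25. The difference between the Cre and KO responses, tested over all 24 libraries, passed for 27 of 10682 genes (0.253%), with 2162 at an unadjusted p below 0.05. Egr1 fell more in Cre livers (-3.14 against -0.48, a difference of -2.66, adjusted p = 0.0433). Adh6-ps1 (1.43 against -0.32) and the complement regulator Cd55 (1.03 against -0.23) rose more. Nab1, a corepressor of Egr1, went from 1.54, 2.45 and 2.22 to 2.04, 2.82 and 1.83 FPKM in Cre livers (0.08) and rose by 1.39 in KO livers (adjusted p = 0.00206) and by 1.41 in WT livers (adjusted p = 0.00721). Cpox, of heme synthesis, fell by 0.94 in KO livers and by 0.59 in WT livers (adjusted p = 0.00185 and 0.0368), and its value in Cre livers was 0.10. Both Cre values were slightly below 0 after rescaling. Several others, among them Ptprb, Gimap4, Calcrl and Gimap8, are known from endothelial or lymphoid cells, which the endothelial sums above move with, and the part of those cells was not tested. Without fasted replicate 3 of the Cre group, or replicate 1 or 3 of the KO fasted group, no gene passed, and without Cre fasted replicate 1 there were 216, so this count rests on single libraries. The models also differ in virus, in how long FoxO1 had been absent and in depth, which cannot be told apart from the deletion itself.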

How the data were processed

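Liver RNA was extracted with Trizol and made into libraries with a stranded mRNA kit, per the labels' protocols. The authors deposited 1 FPKM value per gene locus and library. HISAT2, Cufflinks and Cuffdiff, each without a version, and build mm10 are listed in the submitters' processing notes. No source used here gives the strand setting, so overlapping antisense genes cannot be told apart. Each file lists 23746 loci of 23284 symbols; 708 loci share a symbol, and 14 marked as failed were dropped. Among the 2435 loci whose median FPKM reached 20, 20 had a 0 in at least 1 library.

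Groups and replicate numbers came from the sample titles. Genes at FPKM of at least 1 in at least 3 of the 12 acute libraries were kept (10452). The values log2(FPKM + 1) were tested with limma 3.58.1 (eBayes with trend, R 4.3.3), with 1 coefficient per group, all 12 libraries sharing the spread, and two-sided p-values adjusted by Benjamini-Hochberg over all genes kept. Calls are at 0.05. These fold changes understate changes of low genes. The same fit gave the Cre minus GFP difference. The constitutive arms were fitted apart (10375 genes), and the Cre minus KO difference on all 24 libraries (10682). Same-numbered Cre libraries deviated together with correlations of 0.378, 0.250 and -0.178, so the numbers were not taken as pairs.

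The members and the 40 lists (29 of pathways, 11 of markers; 543 of 615 entries tested, 67 below the filter) were chosen with earlier results of these data known. Genes were named by a rule: Foxo1, the calls of largest change without overlap, 15 in each direction (without predicted genes, small RNAs and shared loci), 16 fixed genes of refeeding, up to 6 calls of each list, and up to 10 calls of each difference. Some results are not reported here. Gys2, Scd1, Cpt1a, Atf4, Ddit3, Ncl, Npm1, Myc, Polr1a, Polr1b, Hspa5, Creld2, Dnajc3, Nop2, Jund, Calcrl and Gimap8 were added after their values were seen. Promoters came from RefSeq (GRCm38.p6), matched by symbol. The fits were tested on simulated data. Alternatives were another pseudocount, filter, scaling, threshold, weights, replicate block, smaller fits and leaving out each library. A depth term, and leaving out GFP or KO libraries, were added after seeing the data.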

Additional observations from a re-analysis of the deposited data

Results flagged for a closer look

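Responses to refeeding that differed between arms by a test of the difference itself are listed here with their log2 differences. Between Cre and GFP livers these were Prelid2 (3.28), Gm4956 (2.73) and Snord17 (2.21). Prelid2 and Gm4956 were higher in every refed than in every fasted Cre library and lower in every refed than in every fasted GFP library. The value of Snord17 rests on 3 fasted GFP libraries, since it was listed at 0 in the other 9. It passed the filter on low values only through those 3 libraries, so its test gives no separate support for a differing response.

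Between the Cre livers and the constitutive KO livers, the 10 differences of largest size that passed were in Egr1 (-2.66), Adh6-ps1 (1.75), Nab1 (-1.32), Cd55 (1.26), Ptprb (1.15), Hgf (1.07), Cpox (1.04), Gimap4 (1.03), Cyp46a1 (1.01) and Slc43a3 (0.949). Adjusted p-values of the 27 differences ran from 0.0263 to 0.0497. In Hgf, which encodes hepatocyte growth factor, the Cre libraries went from 0.998, 0.648 and 0.684 to 2.12, 2.26 and 1.31 FPKM, and the change in KO livers was -0.37. In Cyp46a1, a cholesterol hydroxylase, Cre livers changed by 0.24 and KO livers by -0.77. Endothelial markers moved with these differences, with a median change of 0.81 in Cre and -0.20 in KO livers, and their part was not tested.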

How the results depend on the processing

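In Cre livers 449 genes were called higher and 120 lower. The counts were 168 and 204 after median-of-ratios scaling, 255 and 61 with no filter on low values, 167 and 65 with the Cre groups fitted alone, 38 and 10 at a threshold of 0.01 and 4 and 2 in the 8 shallower libraries. With array weights 700 genes and with a depth term 691 genes were called higher. Leaving out a library gave 45 to 466 higher and 12 to 137 lower calls, fewest without fasted replicate 2. With the replicate number as a block 240 and 66 were called; the pairing is only of numbers, and fasted replicate 2 correlated best with refed replicate 3 (0.298). The Cre minus GFP difference passed for 3 genes, for 5 with a depth term and for 2 to 7 without a library, 7 without Cre fasted replicate 1. The Cre minus KO difference passed for 27 genes, for 140 after scaling, 207 with weights, 77 with the block, 9 in the 12 Cre and KO libraries alone, 0 at 0.01 and 0 to 216 without a library. The cause of these shifts was not tested; fewer libraries or genes enter some fits. None of the 74 named calls changed sign in the settings where it was tested. The signs of the other calls were not followed. Among genes that did not pass, Pck1 ran from -0.53 to 0.24, Nab1 from -0.06 to 0.17, Cpox from -0.01 to 0.18, Ppargc1a from -0.19 to 0.10 and Ppp1r3c from -0.21 to 0.06 over all settings. The Foxo1 differences kept their direction and side of the threshold, between -2.09 and -1.99 fasted and between -2.42 and -2.27 refed without a library. Of 74 named calls, 53 held after scaling, 50 with the block, 69 at a pseudocount of 0.1 and 2 in the shallower libraries. Fragment totals are unknown, so counting error cannot be given.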

Other observations

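Genes outside the lists, chosen after their values were seen, held among the calls without any 1 of the 12 acute libraries. Ccng2, an atypical cyclin known as a FoxO-responsive growth inhibitor, fell from 3.75, 4.20 and 3.61 to 1.35, 1.64 and 1.38 FPKM in Cre livers (-0.98 ± 0.13, adjusted p = 0.00570). It changed by -0.95 in GFP livers, and the difference between arms was -0.03 (adjusted p = 0.985). Erf, a repressor of ETS-driven transcription, fell from 9.80, 8.29 and 9.01 to 3.85, 5.65 and 4.69 FPKM (-0.82), and Mafk, a small Maf factor, from 5.97, 6.19 and 6.09 to 3.81, 3.31 and 3.12 FPKM (-0.69). Among rising genes, Lipg, endothelial lipase, went from 3.68, 4.78 and 4.30 to 10.9, 8.11 and 10.5 FPKM (1.04), and Hes6, a basic helix-loop-helix factor, from 42.7, 37.8 and 40.7 to 67.2, 68.8 and 67.8 FPKM (0.74). Rrn3, which recruits polymerase I to ribosomal DNA, rose from 4.23, 3.29 and 3.81 to 7.21, 7.38 and 7.75 FPKM (0.83). Lman1, a cargo receptor from the endoplasmic reticulum, rose by 0.47, and Mogs, the glucosidase that starts glycan trimming there, by 0.58.

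Marveld2 (tricellulin) and Cldn3 (a claudin) were chosen after their values were seen. Marveld2 fell from 5.35, 8.99 and 8.31 to 1.98, 4.31 and 3.42 FPKM (-1.03 ± 0.22, adjusted p = 0.0272), and Cldn3 from 58.9, 56.8 and 67.2 to 36.5, 43.3 and 46.7 FPKM (-0.53 ± 0.12, adjusted p = 0.0349). Neither call held in all of the fits that leave out 1 acute library.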
